A study of Mus musculus with 24 samples.

Results

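The 10 genes Acly, Acss2, Me1, Acaca, Fasn, Elovl6, Scd1, Scd2, Fads1 and Fads2 encode enzymes that build and desaturate fatty acids. They were chosen by symbol from the 13915 genes of the batch 2 count table, and the same Ensembl identifiers were found among the 55471 genes of the batch 1 table, so that all 10 were measured in every library and all 10 passed the filter on low counts. The question was whether these genes, which respond to the same transcription factors as the cholesterol pathway, moved with the cholesterol synthesis genes in 4 derivatives of EO771, a mouse mammary carcinoma line from a spontaneous tumour of C57BL/6 mice. X2 cells carried the retroviral vector control with the tdTomato reporter. CCR7 cells carried mouse Ccr7 on the same pLNCX2 backbone and were sorted for tdTomato and CCR7. CCR7-PDPN and X2-PDPN cells were sorted further from these for podoplanin (PDPN) that they had turned on spontaneously, so PDPN was selected and not introduced. The methods and the headers of batch 1 give the CCR7 cells as the PDPN-negative sort, while no PDPN sort is named for X2. CCR7 against X2 is therefore Ccr7 together with a PDPN-negative sort, and the PDPN comparison sets a positive against a negative sort with CCR7 and a positive sort against X2 without it. All 4 derivatives were cultured in RPMI-1640 with fetal bovine serum, and each was 1 non-clonal population. X2 and CCR7-PDPN were read in both batches, CCR7 only in batch 1 and X2-PDPN only in batch 2, with 4 technical replicates per derivative and batch (24 libraries). The p-values therefore measure only the spread between these libraries, and a derivative cannot be told apart from the single population that stood for it.

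Fatty acids are built in the cytosol from acetyl-CoA. ATP citrate lyase (Acly) and acetyl-CoA synthetase (Acss2) supply the acetyl-CoA, from citrate and from acetate, and malic enzyme (Me1) supplies NADPH. Acetyl-CoA carboxylase (Acaca) makes malonyl-CoA, fatty acid synthase (Fasn) assembles palmitate, Elovl6 lengthens it, the stearoyl-CoA desaturases (Scd1, Scd2) place a double bond in saturated chains, and Fads1 and Fads2 desaturate dietary polyunsaturated chains. The sterol regulatory element-binding proteins (SREBPs) are membrane-bound transcription factors that are released when sterols fall: the product of Srebf2 acts mainly on cholesterol synthesis, and the main isoform from Srebf1 on fatty acid synthesis. Tumour cells often make their own fatty acids for membranes even where lipid is at hand.

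Library totals were 22275468 to 33395418 counts in batch 1 and 22788542 to 35721027 in batch 2, and the members were covered by 253 to 74331 counts per library. Ccr7 was at 2714 to 3424 counts scaled to library size (CPM) in the CCR7 and CCR7-PDPN libraries and at 0.165 to 0.954 CPM in the others. Pdpn was at 23.6 to 26.9 CPM in both sorted derivatives and at 0 to 0.619 CPM elsewhere, so every library matched its label. The label of a mammary carcinoma line was met in part: in batch 1 Krt8 and Vim were abundant, at 441 to 560 and 1848 to 2025 transcripts scaled to exonic length and library size (TPM), but Epcam and Cdh1 were at most at 0.133 TPM and Krt18 at 0.55 TPM. Of cells that make much fat, the milk genes Csn1s1, Csn1s2a, Csn2 and Wap and the adipocyte genes Lep and Cfd were at 0 in all batch 1 libraries. The milk fat gene Btn1a1 (butyrophilin) was detected, at 2.25 TPM in X2, 1.33 TPM in CCR7 and 0.844 TPM in CCR7-PDPN of batch 1. For batch 2 its mean was 2.22 TPM in X2, 0.948 TPM in CCR7-PDPN and 0.824 TPM in X2-PDPN. The summed adipocyte markers, mostly Fabp4, were at 5.32 to 6.34 CPM in X2, 1.11 to 1.78 CPM in CCR7 and 0.662 to 1.15 CPM in CCR7-PDPN. The summed leukocyte markers, mostly Cd68 and Lyz2, were at 52.6 to 62.5, 17.1 to 23.3 and 10.3 to 13.4 CPM in the same order, while Ptprc was at most at 0.0159 TPM. In batch 2, 2 of 8 adipocyte and 3 of 8 leukocyte markers were in the table, at 4.7 to 5.8 and 53.2 to 59.3 CPM in X2, 3.23 to 3.81 and 27.3 to 32.3 CPM in X2-PDPN, and 0.354 to 0.853 and 9.69 to 12 CPM in CCR7-PDPN. The adipocyte and leukocyte sums and Btn1a1 were lower in the derivatives in which most members were higher. The share of counts in mitochondrial genes was 0.711 to 1.046% in X2-PDPN and 0.435 to 0.641% in X2 of batch 2, without overlap, and 0.347 to 0.871% over all other groups. The part of these values in the members' differences was not tested. CCR7 replicate 1 stood apart from its group: chi-square per degree of freedom, over genes with at least 10 counts in a pair, ran from 12.3 to 20.4 between it and the other 3 CCR7 libraries and from 1.99 to 7.81 in the remaining 33 replicate pairs. Without it, 7 members rose and 2 fell in CCR7 against X2, as with it, and 6 rose and 0 fell in CCR7-PDPN against CCR7, in place of 7 and 0. Same-numbered libraries of X2 and of CCR7-PDPN deviated together across the batches: the correlation of their deviations from the group mean over 9165 genes was 0.10 to 0.44 in the 8 same-number pairs and -0.23 to 0.13 in the 24 other pairs. The second batch is therefore not treated here as an independent repeat of the first, and whether the libraries of both batches share RNA is not given in the sources used here.

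The start sites of the members bear on the question asked, since SREBPs act at promoters together with factors that bind CCAAT and GC boxes. RefSeq (GRCm38.p6) gave promoters for 7 of the 10 members, 8 in all, as the 250 bases before each start site. Those of Scd1, Scd2 and Fads1 are not analysed here. Of these, 4 are shown: Acss2, Elovl6 and Fasn, which rose most of the members in X2-PDPN against X2, and Acly, whose pattern was most like that of cholesterol genes. Capitals mark a CCAAT box (CCAAT, or ATTGG on the other strand) or a GC box (GGGCGG or CCGCCC). In Fasn a CCAAT and an ATTGG overlap in the run CCAATTGG.
Acss2, chr2:155517793-155518042, plus strand: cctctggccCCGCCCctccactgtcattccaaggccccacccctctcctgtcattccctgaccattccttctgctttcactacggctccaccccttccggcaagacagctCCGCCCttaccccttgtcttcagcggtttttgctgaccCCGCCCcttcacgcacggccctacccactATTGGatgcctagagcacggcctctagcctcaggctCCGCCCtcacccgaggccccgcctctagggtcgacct
Fasn, chr11:120824548-120824797, minus strand: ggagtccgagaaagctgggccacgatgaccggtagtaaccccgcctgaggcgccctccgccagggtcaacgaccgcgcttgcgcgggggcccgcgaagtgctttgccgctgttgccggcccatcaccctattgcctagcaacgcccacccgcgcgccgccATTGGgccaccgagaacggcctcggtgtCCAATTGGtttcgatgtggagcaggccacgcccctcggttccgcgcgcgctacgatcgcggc
Elovl6, chr3:129532136-129532385, plus strand: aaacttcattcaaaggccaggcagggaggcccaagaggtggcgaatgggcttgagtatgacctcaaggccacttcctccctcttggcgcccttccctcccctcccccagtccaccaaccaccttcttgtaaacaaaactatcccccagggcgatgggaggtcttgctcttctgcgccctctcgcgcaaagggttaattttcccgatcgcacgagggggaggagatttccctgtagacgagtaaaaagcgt
Acly, chr11:100528001-100528250, minus strand: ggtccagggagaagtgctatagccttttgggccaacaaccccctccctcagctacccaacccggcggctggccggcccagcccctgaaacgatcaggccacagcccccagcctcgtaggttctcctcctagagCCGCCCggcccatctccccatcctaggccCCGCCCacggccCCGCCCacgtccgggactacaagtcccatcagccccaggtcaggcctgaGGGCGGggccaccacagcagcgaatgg
Several of the 8 windows lie partly or wholly within the deposited gene models. The Acaca window (chr11:84195188-84195437) and the Me1 window at chr9:86687278-86687527 lie wholly inside the gene, and that of Fads2 mostly so. The windows of Acss2 and Elovl6 and the other of Me1 reach into the gene with their last bases. In Acss2 these hold the CCAAT box and the GC box nearest the RefSeq start. The shares below count all 8 windows, so they are not shares of upstream sequence alone. The window of Fasn holds 3 CCAAT boxes and no GC box, that of Acss2 holds 1 CCAAT box and 4 GC boxes, that of Acly holds 4 GC boxes and no CCAAT box, and that of Elovl6 holds neither. Over both strands a CCAAT box was in the promoters of 3 of the 7 members (37.5% of 8 promoters), beside 33.8% of 32851 mouse promoters of the same length and 78.9% of the 19 promoters of cholesterol synthesis genes. A GC box was in 50% of the members' promoters, 32.7% of all and 84.2% of the cholesterol set. The sterol regulatory element searched as TCACNCCAC was in 0 of the 8 promoters, in 1.05% of all and in 5.26% of the cholesterol set, which says only that these letters are not in these windows. The E-box CACGTG was in 0 of the 8 promoters and in 6.02% of all.

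Per exonic length, the desaturases Scd2, Scd1 and Fads2 had the highest means of the group, while Fads1 lay below Acly. In X2 cells of batch 1, Scd2 was at 1131 TPM and Scd1 at 322 TPM (means of 4 libraries), and Scd2 stood at rank 101 among 12756 genes at 1 TPM or more. Fads2 followed at 162 TPM, Acly at 127 TPM, Fads1 at 121 TPM, Me1 at 75.4 TPM, Fasn at 60.4 TPM, Elovl6 at 56.1 TPM, Acaca at 18.7 TPM and Acss2 at 5.32 TPM. The libraries of Acly and Fads1 overlapped there, as did those of Fasn and Elovl6, and each other neighbour in this order was separated in all 4 libraries. The order was the same in the other derivatives with 1 exception: in X2-PDPN, Elovl6 (103 TPM), Fasn (97.7 TPM) and Me1 (96.2 TPM) came in that order, and neighbours among the 3 overlapped.

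**Figure D1:**
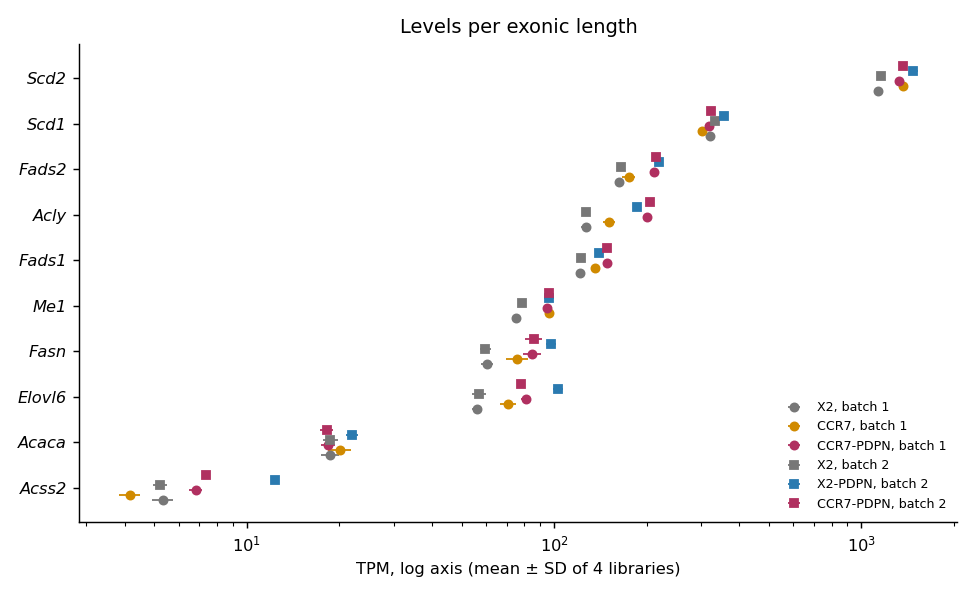
Levels of the 10 members in TPM on a log axis, as means with SD of 4 libraries (bars smaller than a symbol are hidden by it). Circles are batch 1 and squares batch 2. Scd2 stands highest, at 1131 to 1475 TPM, and Acss2 lowest, at 4.17 to 12.3 TPM, with X2-PDPN (blue) at the top of its range.

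Most members were higher in every derivative than in X2. Counts were tested with the quasi-likelihood test of edgeR, with Benjamini-Hochberg adjustment over all genes tested, and a gene was called at an adjusted p under 0.05. In CCR7 against X2, 7 members rose and 2 fell, where 24% of all genes tested were called higher and 25.2% lower. With the PDPN sort and no CCR7 (X2-PDPN against X2), all 10 rose (28.2% of all genes called higher, 28.5% lower), although only Acss2 passed a log2 fold change of 1 (3.51% of all genes). With the PDPN sort on top of CCR7 (CCR7-PDPN against CCR7), 7 rose and 0 fell (20.9% of all genes called higher, 20.7% lower). With both against neither, 8 rose and 0 fell in batch 1 and in batch 2 (30.3% and 32% of all genes called higher, 30.6% and 32.8% lower). Between the PDPN-sorted derivatives (CCR7-PDPN against X2-PDPN), 2 were higher and 6 lower with CCR7 (31.2% and 32% of all genes). Asked for a fold above 1.2, the same test called fewer members. In CCR7 against X2 it called 1 higher and 0 lower (9.17% of all genes higher, 9.87% lower), and in X2-PDPN against X2 6 higher and 0 lower (10.5% and 7.14%). In CCR7-PDPN against CCR7 it called 2 higher and 0 lower (2.94% and 4.83%), in CCR7-PDPN against X2 7 higher in batch 1 (13% and 14.6%) and 5 in batch 2 (13.4% and 15.3%) with 0 lower in either, and in CCR7-PDPN against X2-PDPN 0 higher and 2 lower (9.36% and 15.7%). The comparisons within a batch share libraries, so their counts are not separate evidence. The members and the lists below were chosen with earlier results of these data known. Their counts beside the shares of all genes are therefore descriptions and not a test.

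**Figure D2:**
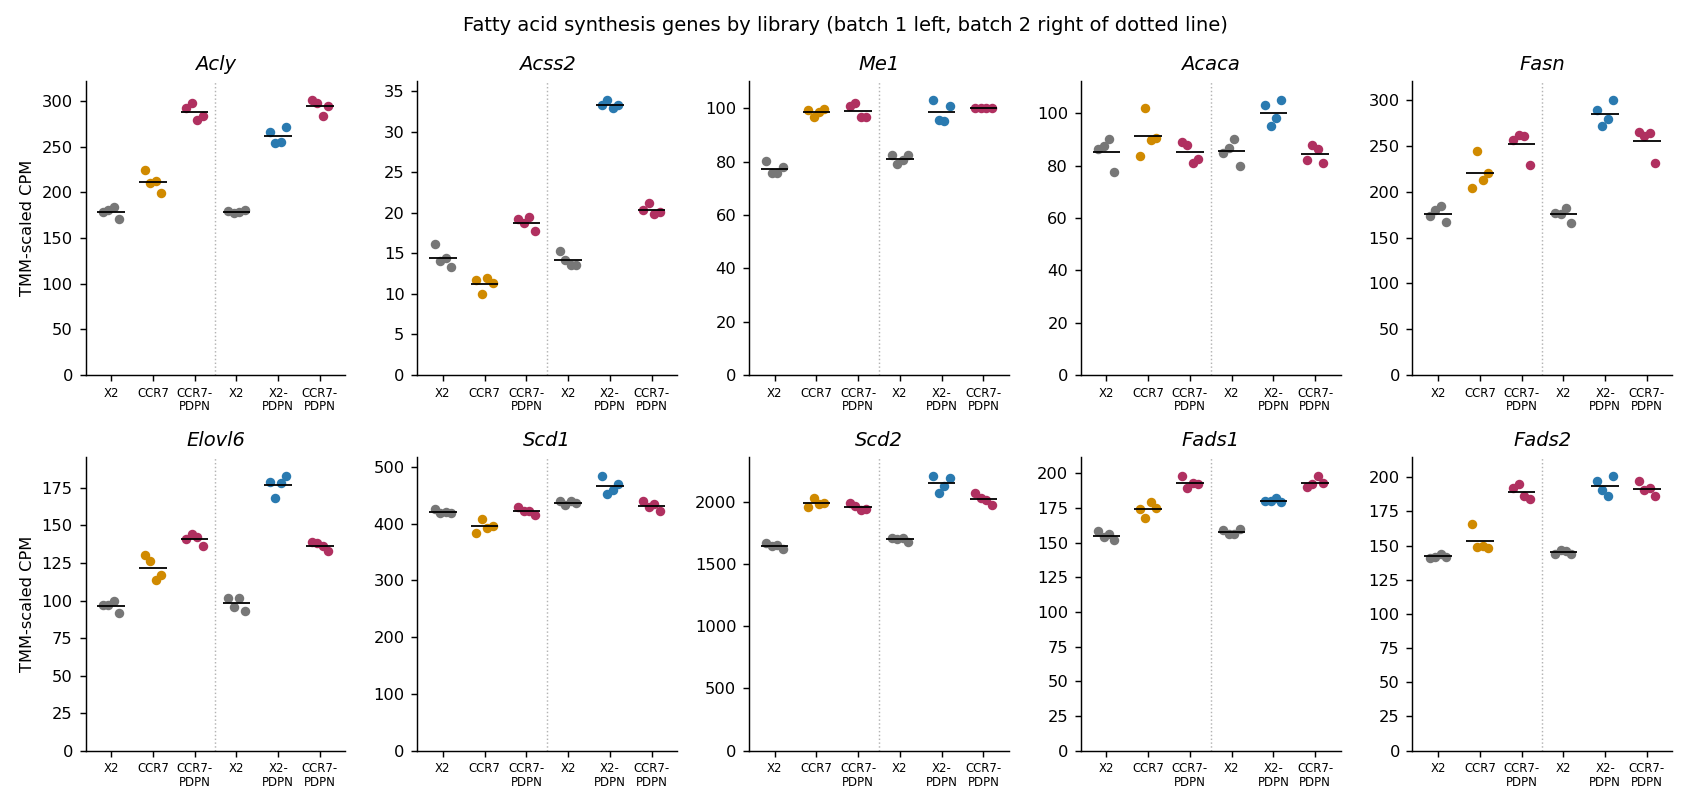
Each point is 1 library, in CPM after TMM scaling, with a bar at the mean of 4 libraries. X2 is grey, CCR7 orange, X2-PDPN blue and CCR7-PDPN red, with batch 1 left of the dotted line. Acly is highest in CCR7-PDPN (279 to 301 CPM), Acss2 in X2-PDPN (33 to 33.9 CPM), and Acaca and Scd1 differ little between derivatives.

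Of the suppliers, Acly (chr11:100476353-100528000) gave the clearest steps. In batch 1 its libraries were at 179, 181, 184 and 171 CPM in X2, 225, 210, 213 and 199 CPM in CCR7, and 293, 298, 279 and 284 CPM in CCR7-PDPN. In batch 2 they were at 180, 177, 178 and 181 CPM in X2, 266, 254, 255 and 272 CPM in X2-PDPN, and 301, 298, 284 and 295 CPM in CCR7-PDPN. No derivative overlapped another within a batch. Acly rose by a log2 fold change of 0.24 in CCR7 against X2 (SE 0.04, edgeR adjusted p = 8.8e-06) and by 0.55 in X2-PDPN against X2 (SE 0.03, edgeR adjusted p = 3.0e-21). With both, it rose by 0.69 in batch 1 (SE 0.04, edgeR adjusted p = 5.0e-13) and by 0.72 in batch 2 (SE 0.03, edgeR adjusted p = 4.4e-26). It was the member that rose most there, and 1 of the 2 for which CCR7-PDPN lay above X2-PDPN, by 0.17 (SE 0.03, edgeR adjusted p = 5.6e-07).

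Acss2 (chr2:155517948-155585724), which makes acetyl-CoA from acetate, fell in CCR7 and rose in both PDPN-sorted derivatives against X2. Its X2 libraries were at 16.1, 14.0, 14.4 and 13.3 CPM in batch 1 and 15.3, 14.2, 13.6 and 13.6 CPM in batch 2. The CCR7 libraries were at 11.7, 9.99, 12.0 and 11.4 CPM, all below X2, and Acss2 fell by 0.35 on the log2 scale (SE 0.07, edgeR adjusted p = 2.7e-04). The X2-PDPN libraries were at 33.3, 33.9, 33 and 33.3 CPM, 2.36-fold X2 of the same batch (log2 fold change 1.24, SE 0.05, edgeR adjusted p = 8.6e-25). The CCR7-PDPN libraries lay between, at 19.2, 18.8, 19.5 and 17.7 CPM in batch 1 and 20.3, 21.2, 19.9 and 20.1 CPM in batch 2. Acss2 was thus higher in CCR7-PDPN than in CCR7 (0.73, SE 0.07, edgeR adjusted p = 3.4e-08) and lower than in X2-PDPN (-0.71, SE 0.05, edgeR adjusted p = 1.6e-17). The ratio of Acss2 to Acly in TPM, added after the values were seen, was highest in X2-PDPN, at 0.0663 ± 0.00246, beside 0.0411 ± 0.00226 in X2 of batch 2 and 0.0359 ± 0.000926 in CCR7-PDPN (SD, n = 4). It separated every pair of derivatives within each batch (exact permutation test, two-sided, p = 0.0286 in each, the smallest that 4 against 4 allows, and 0.034 after adjustment over 18 ratio tests).

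Me1 (chr9:86581371-86695953), the cytosolic malic enzyme, was higher in all derivatives than in X2. Its X2 libraries were at 75.6 to 80.3 CPM in batch 1 and 79.2 to 82.4 CPM in batch 2. The other derivatives were all between 95.2 and 103 CPM and overlapped one another. Me1 rose by 0.35 in CCR7 (SE 0.03, edgeR adjusted p = 1.4e-08) and by 0.28 in X2-PDPN against X2 (SE 0.03, edgeR adjusted p = 1.7e-10), with 0.01 between CCR7-PDPN and CCR7 (SE 0.03, edgeR adjusted p = 0.86). The other tested genes within 5 Mb of Me1 had a median of 0.20 in CCR7 against X2, so that 0.15 was left above its neighbours, and 16.4% of the 75-base words in its exons occur in other transcripts, mainly of Gm7049 and Gm7329, so its reads could be split with those.

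The 2 chain-building enzymes parted. Acaca (chr11:84129672-84401651), which makes the malonyl-CoA for the chain, rose only where PDPN was sorted without CCR7. Its X2 libraries were at 84.9, 86.8, 90.3 and 80.0 CPM in batch 2, those of X2-PDPN at 103, 95.0, 98.2 and 105 CPM, and those of CCR7-PDPN at 82.1, 88.0, 86.3 and 81.0 CPM. X2-PDPN lay above both others, which overlapped. The difference from X2 was 0.23 in X2-PDPN (SE 0.04, edgeR adjusted p = 1.0e-06), 0.10 in CCR7 (SE 0.06, edgeR adjusted p = 0.16), and 0.00 and -0.02 in CCR7-PDPN of batch 1 and 2 (SE 0.06 and 0.04).

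Fasn (chr11:120805846-120824547), the palmitate synthase, rose in every derivative. In batch 1 its libraries were at 174, 180, 184 and 167 CPM in X2, 204, 245, 213 and 221 CPM in CCR7, and 257, 262, 261 and 229 CPM in CCR7-PDPN. In batch 2 they were at 177, 176, 182 and 166 CPM in X2, 289, 272, 280 and 300 CPM in X2-PDPN, and 265, 261, 264 and 232 CPM in CCR7-PDPN. X2 lay below every other derivative, CCR7 and CCR7-PDPN overlapped, and replicate 4 was low in both X2 and both CCR7-PDPN groups. Fasn rose by 0.33 in CCR7 (SE 0.06, edgeR adjusted p = 1.6e-04), 0.70 in X2-PDPN (SE 0.04, edgeR adjusted p = 9.6e-12), and 0.52 and 0.54 in CCR7-PDPN of batch 1 and 2 against X2 (SE 0.06 and 0.04). The rise from CCR7 to CCR7-PDPN was 0.19 (SE 0.05, edgeR adjusted p = 0.012), and without CCR7 replicate 1 it was 0.15 and not called (edgeR adjusted p = 0.059). Acaca, at 17074 exonic bases, is longer than 98.8% of all genes and Fasn, at 10947 bases, longer than 93.7%. The genes with the longest exons, 10% of those tested, had a median of 0.05 in CCR7 against X2, -0.06 in CCR7-PDPN against CCR7, -0.01 and -0.02 in CCR7-PDPN against X2 of batch 1 and 2, 0.06 in X2-PDPN against X2 and -0.08 in CCR7-PDPN against X2-PDPN. Within CCR7 the library with the lowest Acaca and Fasn (replicate 1) had these genes at a median of -0.09 from the group mean and the one with the highest (replicate 2) at 0.06. The part of length in their differences was not tested. Of the 75-base words in Acaca, 26.8% occur in other transcripts.

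Elovl6 (chr3:129532355-129638495), which extends palmitate to stearate, had the second largest rise in X2-PDPN. Its batch 2 libraries were at 102, 95.9, 102 and 92.9 CPM in X2, 179, 168, 178 and 183 CPM in X2-PDPN, and 139, 138, 136 and 133 CPM in CCR7-PDPN. The 3 groups did not overlap. It rose 1.8-fold in X2-PDPN (log2 fold change 0.85, SE 0.03, edgeR adjusted p = 5.4e-26) and by 0.47 in CCR7-PDPN (SE 0.03, edgeR adjusted p = 3.0e-17). In batch 1, X2 was at 91.8 to 99.5 CPM, CCR7 at 114 to 130 CPM and CCR7-PDPN at 136 to 144 CPM, steps of 0.34 (SE 0.04, edgeR adjusted p = 4.3e-07) and 0.21 (SE 0.04, edgeR adjusted p = 2.3e-04). The difference of CCR7-PDPN from X2-PDPN was -0.38 (SE 0.03, edgeR adjusted p = 1.9e-14), and the other genes within 5 Mb of Elovl6 had a median of -0.24 there.

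The 2 stearoyl-CoA desaturases, both on chromosome 19, did not move alike. Scd2 (chr19:44293674-44306864) was at 1619 to 1674 CPM in X2, 1964 to 2034 CPM in CCR7 and 1937 to 1995 CPM in CCR7-PDPN of batch 1, and at 1675 to 1714 CPM in X2, 2069 to 2210 CPM in X2-PDPN and 1975 to 2074 CPM in CCR7-PDPN of batch 2. X2 lay apart from all others, and the others overlapped within each batch. Scd2 rose by 0.27 in CCR7 (SE 0.02, edgeR adjusted p = 3.3e-09), 0.34 in X2-PDPN (SE 0.02, edgeR adjusted p = 6.0e-16) and 0.25 in CCR7-PDPN of either batch against X2. Scd1 (chr19:44394455-44407879) fell by 0.09 in CCR7, where its libraries were at 384, 409, 392 and 395 CPM against 426, 418, 421 and 419 CPM in X2 (SE 0.03, edgeR adjusted p = 0.0073). It was 0.09 higher in X2-PDPN than in X2 (SE 0.03, edgeR adjusted p = 0.0014), and CCR7-PDPN differed from X2 by 0.01 and -0.02 in batch 1 and 2 (SE 0.03 in both, edgeR adjusted p = 0.85 and 0.54). The ratio of Scd1 to Scd2 in TPM, also added after the values were seen, was 0.285 ± 0.00275 in X2 of batch 1, 0.221 ± 0.00272 in CCR7 and 0.241 ± 0.00232 in CCR7-PDPN, and in batch 2 it was 0.287 ± 0.00276 in X2 cells, 0.238 ± 0.00263 in CCR7-PDPN and 0.242 ± 0.00229 in X2-PDPN (SD, n = 4). Every derivative lay below X2 (exact permutation test, two-sided, p = 0.0286, adjusted 0.034), while the PDPN-sorted derivatives overlapped (p = 0.0571, adjusted 0.061). Few 75-base words of these genes, 3.15% of Scd1 and 1.78% of Scd2, occur in other transcripts.

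Both front-end desaturases rose in each derivative against X2, by unequal amounts. Fads1 (chr19:10182888-10196877) was at 152 to 158 CPM in X2, 168 to 179 CPM in CCR7 and 189 to 198 CPM in CCR7-PDPN of batch 1, and in batch 2 at 156 to 160 CPM in X2, 179 to 182 CPM in X2-PDPN and 190 to 198 CPM in CCR7-PDPN. These groups did not overlap, and Fads1 was the other member for which CCR7-PDPN lay above X2-PDPN (0.10, SE 0.03, edgeR adjusted p = 8.2e-04). Fads2 (chr19:10062765-10101746) was at 141 to 144 CPM in X2, 148 to 166 CPM in CCR7 and 184 to 195 CPM in CCR7-PDPN of batch 1, and in batch 2 at 144 to 147 CPM in X2, 186 to 201 CPM in X2-PDPN and 186 to 197 CPM in CCR7-PDPN. The PDPN-sorted derivatives overlapped for Fads2, with a difference of -0.02 (SE 0.03, edgeR adjusted p = 0.64). Against X2, Fads2 rose by 0.11 in CCR7 (SE 0.04, edgeR adjusted p = 0.013), 0.41 in X2-PDPN (SE 0.03, edgeR adjusted p = 8.3e-17) and 0.40 in CCR7-PDPN of batch 2 (SE 0.03, edgeR adjusted p = 1.5e-16), and Fads1 by 0.17, 0.19 and 0.29 (SE 0.03 in each). The ratio of Fads1 to Fads2 in TPM, added after the values were seen, was 0.746 ± 0.0133 in X2, 0.778 ± 0.0456 in CCR7 and 0.699 ± 0.0221 in CCR7-PDPN of batch 1 (SD, n = 4). For batch 2 it was 0.743 ± 0.015 in X2 libraries, 0.691 ± 0.0234 in CCR7-PDPN and 0.638 ± 0.0263 in X2-PDPN (SD, n = 4). Each PDPN-sorted derivative lay below X2, and CCR7-PDPN also below CCR7 (exact permutation test, two-sided, p = 0.0286, adjusted 0.034), while the tests of CCR7 against X2 (p = 0.229, adjusted 0.23) and of CCR7-PDPN against X2-PDPN (p = 0.0571, adjusted 0.061) did not pass.

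By their medians, the cholesterol synthesis genes moved further than the fatty acid genes and in the same direction, except between the PDPN-sorted derivatives. Of the 21 genes of this list, 15 rose and 1 fell in CCR7 against X2 (median log2 fold change 0.28), where the median of the members was 0.21. In CCR7-PDPN against CCR7, 20 rose and 0 fell, with medians of 0.69 and 0.17. In X2-PDPN against X2, 20 rose and 0 fell, with medians of 0.78 and 0.38. In CCR7-PDPN against X2, 19 rose and 0 fell in either batch, with medians of 0.94 and 0.37 in batch 1 and 0.95 and 0.35 in batch 2. Of all genes, 24% were called higher and 25.2% lower in CCR7 against X2, and 20.9% and 20.7% in CCR7-PDPN against CCR7. The shares were 28.2% and 28.5% in X2-PDPN against X2. For CCR7-PDPN against X2 they were 30.3% and 30.6% in batch 1 and 32% and 32.8% in batch 2. The median of all genes tested was 0.00 in each. The medians therefore differed by 0.08 in CCR7 against X2 and by 0.41 to 0.60 in the comparisons that add PDPN, as descriptions without a test of the lists. The smaller gap depends on the setting: with the median of genes within 5 Mb subtracted, the medians in CCR7 against X2 were 0.35 for the cholesterol genes and 0.15 for the members. Hmgcs1, the enzyme that makes HMG-CoA, rose by 0.51 in CCR7, 1.30 in X2-PDPN and 1.36 in CCR7-PDPN of batch 1 (edgeR adjusted p = 0.0015, 1.4e-09 and 5.6e-07). Of the members, Acly rose most in CCR7-PDPN against X2, and Acaca and Scd1 were not called there. In CCR7-PDPN against X2-PDPN the directions parted. There 14 cholesterol genes were higher and 4 lower (median 0.19, beside 31.2% and 32% of all genes), and the members had a median of -0.10. Mvd, a mevalonate pathway enzyme, was highest there at 1.81 (SE 0.03, edgeR adjusted p = 5.6e-39), beside a median of 1.02 for the other genes within 5 Mb of it.

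**Figure D3:**
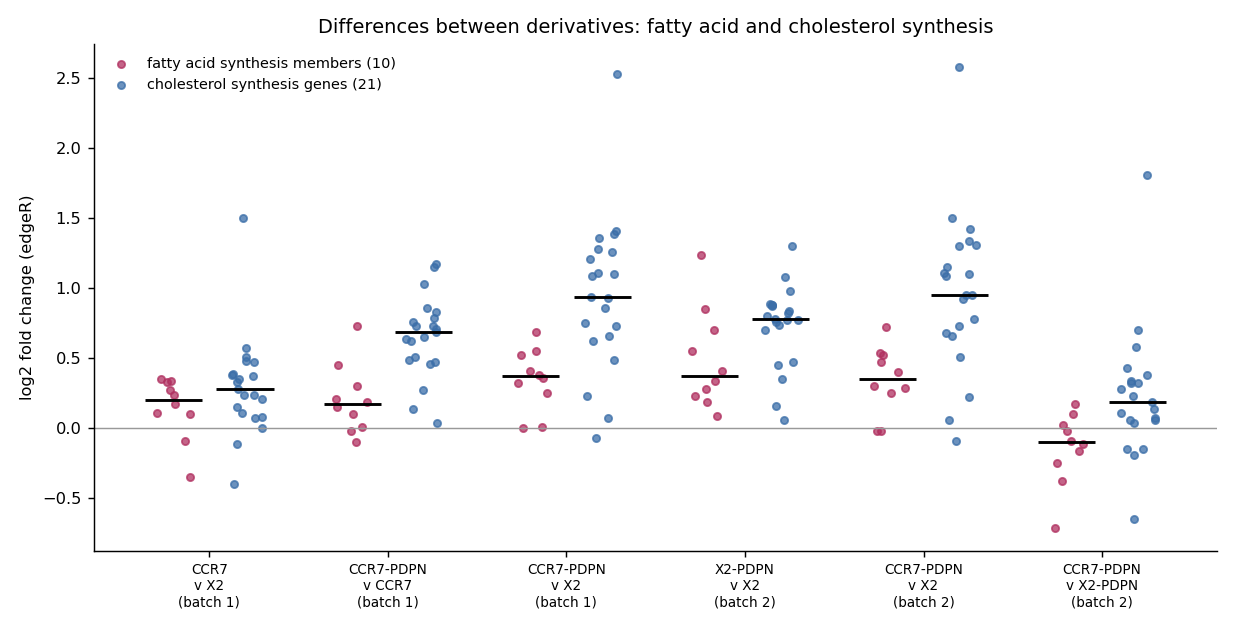
Log2 fold changes from edgeR for the 10 members (red) and the 21 cholesterol synthesis genes (blue) in the 6 comparisons, each point 1 gene and each bar the median of its list. The cholesterol median stands above the members' in all 6, by the least in CCR7 against X2 (0.28 and 0.21), and only CCR7-PDPN against X2-PDPN has a members' median below 0 (-0.10).

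Of the genes that encode the SREBPs, Srebf2 rose more than Srebf1 in X2-PDPN against X2. Srebf1 was at 105 ± 3.51 CPM in X2, 127 ± 1.38 CPM in X2-PDPN and 109 ± 7.29 CPM in CCR7-PDPN of batch 2 (SD, n = 4). It rose by 0.27 in X2-PDPN (SE 0.03, edgeR adjusted p = 9.9e-09) and fell by 0.09 in CCR7 against X2 (SE 0.03, edgeR adjusted p = 0.03), and the difference of CCR7-PDPN from X2 was 0.04 in either batch (edgeR adjusted p = 0.3 and 0.28). Srebf2 was at 558 ± 16 CPM in X2, 842 ± 17 CPM in X2-PDPN and 701 ± 28.4 CPM in CCR7-PDPN of batch 2. It rose by 0.59 in X2-PDPN (SE 0.03, edgeR adjusted p = 1.3e-22) and by 0.33 in CCR7-PDPN (SE 0.03, edgeR adjusted p = 2.0e-14), and its difference in CCR7 was 0.05 (SE 0.03, edgeR adjusted p = 0.13). Both fell between X2-PDPN and CCR7-PDPN, with log2 fold changes of -0.23 and -0.26 (edgeR adjusted p = 2.9e-07 and 1.8e-11). Of the SREBP targets outside synthesis, Insig1, which holds SREBPs in the membrane, rose by 0.76 in X2-PDPN and 0.79 in CCR7-PDPN of batch 2. It differed by 0.03 between the PDPN-sorted derivatives (edgeR adjusted p = 0.43). Lpin1, a phosphatidate phosphatase, rose by 1.21 in X2-PDPN and 1.03 in CCR7-PDPN of batch 2. Of the 21 SREBP control genes tested, 11 rose and 5 fell in X2-PDPN against X2 (median 0.13, beside 28.2% of all genes called higher and 28.5% lower). In CCR7-PDPN against X2 of batch 2, 10 rose and 8 fell (0.04, beside 32% and 32.8%). In CCR7 against X2, 7 rose and 8 fell (-0.04, beside 24% and 25.2%). In CCR7-PDPN against CCR7, 11 rose and 4 fell (0.14, beside 20.9% and 20.7%). In CCR7-PDPN against X2-PDPN, 6 were higher and 8 lower (-0.02, beside 31.2% and 32%).

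The 30 other genes of fatty acid synthesis that were tested had no common direction. In X2-PDPN against X2, 11 rose and 8 fell (median 0.00, beside 28.2% of all genes called higher and 28.5% lower). In CCR7 against X2, 8 rose and 7 fell (-0.02, beside 24% and 25.2%). In CCR7-PDPN against CCR7, 12 rose and 8 fell (0.02, beside 20.9% and 20.7%). In CCR7-PDPN against X2 of batch 2, 14 rose and 12 fell (0.08, beside 32% and 32.8%). In CCR7-PDPN against X2-PDPN, 11 were higher and 11 lower (-0.01, beside 31.2% and 32%). Acacb, the mitochondrial carboxylase whose product curbs fatty acid import, rose by 1.11 in X2-PDPN (SE 0.07, edgeR adjusted p = 8.2e-18) and by 0.88 in CCR7-PDPN of batch 2 against X2 (SE 0.07, edgeR adjusted p = 1.9e-14). Elovl5, which extends polyunsaturated chains, rose by 0.78 in CCR7 (SE 0.03, edgeR adjusted p = 3.0e-15), beside a median of 0.58 for the genes within 5 Mb. Mid1ip1, whose product binds acetyl-CoA carboxylase, rose by 0.68 in X2-PDPN (SE 0.12, edgeR adjusted p = 6.0e-06) and fell by 0.53 from CCR7 to CCR7-PDPN (SE 0.14, edgeR adjusted p = 0.0052), at 2.21 to 4.64 CPM in the group means.

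The difference that goes with the PDPN sort was smaller for most members where CCR7 was present. The difference of the differences (CCR7-PDPN minus CCR7, less X2-PDPN minus X2) was lower in 7 members and higher in 0, where 20.5% of 13690 genes were called lower and 20.3% higher. It was largest in Elovl6 (-0.64, SE 0.05, edgeR adjusted p = 2.0e-12), where the sort went with 0.85 without CCR7 and 0.21 with it. Fasn (-0.51, SE 0.08, edgeR adjusted p = 2.0e-05) went from 0.70 to 0.19, Acss2 (-0.50, SE 0.08, edgeR adjusted p = 3.9e-06) from 1.24 to 0.73, and Scd2 (-0.36, SE 0.03, edgeR adjusted p = 3.2e-11) from 0.34 to -0.02. Acaca was at -0.33 (SE 0.08, edgeR adjusted p = 0.0012), Me1 at -0.27 (SE 0.04, edgeR adjusted p = 3.8e-06) and Fads2 at -0.11 (SE 0.04, edgeR adjusted p = 0.048). The call of Fads2 was lost without CCR7 replicate 1 (-0.07, edgeR adjusted p = 0.12) and without any 1 of CCR7-PDPN replicates 3 and 4 (batch 1), X2 replicates 1 and 4 or X2-PDPN replicates 1 and 4 (batch 2), at edgeR adjusted p = 0.065 to 0.097. Acly, Fads1 and Scd1 were not called, at -0.10 (SE 0.05), -0.04 (SE 0.04) and 0.01 (SE 0.04), although Acly was called at -0.12 to -0.13 without CCR7 replicate 4, CCR7-PDPN replicate 2 of batch 1, or X2-PDPN replicate 2 or 3 (edgeR adjusted p = 0.019 to 0.049). The members' median was -0.30, that of the 21 cholesterol genes -0.11 with 3 higher and 8 lower, and that of the longest genes -0.12. The cells with CCR7 were read in batch 1 and those without in batch 2, so this test sets 1 batch against the other and CCR7 and batch cannot be told apart in it. The comparison that both batches hold, CCR7-PDPN against X2, differed between them by -0.07 to 0.14 over the members, with 0 of 13690 genes called by edgeR or DESeq2 and 293 genes (2.14%) and 0 members at an unadjusted edgeR p under 0.05. That fit takes the libraries of both batches as independent, although same-numbered ones deviated together, so its calls say little about a batch effect on the members.

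**Figure D4:**
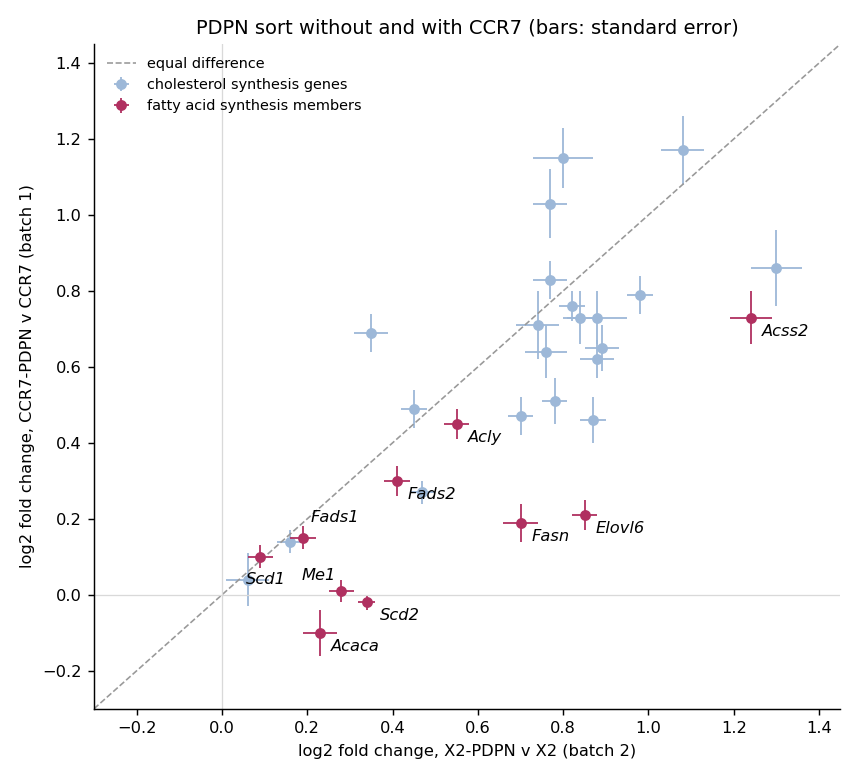
Log2 fold change that goes with the PDPN sort in cells without CCR7 (x axis, batch 2) and with CCR7 (y axis, batch 1), with standard errors as bars, for members (red, named) and cholesterol synthesis genes (blue). Points on the dashed line have equal differences. Elovl6 (0.85 and 0.21) and Fasn (0.70 and 0.19) lie farthest below it among the members, and Scd1 (0.09 and 0.10) lies on it.

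Across the 24 libraries, with the X2 mean of each batch subtracted from log2 CPM, the genes most like each member among 13030 genes are given as a description, since libraries of a derivative share their culture and the 6 group means set most of each correlation. Most like Acly were the cholesterol synthesis genes Lss and Cyp51 and, with them, Arl4c (Pearson r = 0.99 each), and Fads2 was nearest to the cholesterol synthesis genes Dhcr7 (0.99) and Pmvk (0.98). For the other members no cholesterol gene was among the nearest 3. Fasn was nearest to Itga5, Baz2a and Pxdn, Elovl6 to Elk3 and Selenbp1, and Scd2 to Pxdn, Lamb2 and Tns1 (0.98 each). Acss2 was nearest to Map2k3 (0.98), Col18a1 (0.97) and Fut8 (0.96), and had r = 0.92 with Srebf2 and 0.89 with Srebf1. Me1 was nearest to Pop1, Pcdhgc5 and Ulbp1 (0.97 each) and Fads1 to Acy3, Adgre5 and Tcp11x2 (0.98 each). Scd1 was nearest to Heatr5a (0.94), Adora2b and Creb3l2 (0.92 each), and Acaca to Usp9x (0.94), Kif1b and Birc6 (0.93 each), which at 15051, 17809 and 25772 exonic bases are long genes like Acaca. Among the members, Acly had r = 0.97 with Fads2, 0.98 with Hmgcs1 and 0.12 with Acaca, and Fasn had r = 0.96 with Elovl6.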

How the data were processed

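Polyadenylated RNA of 4 EO771 derivatives was read in 24 libraries. Per the file headers and labels, the authors mapped single-end reads (75 bases, stranded libraries) to GRCm38/mm10 and deposited raw counts per Ensembl gene; the aligner, the rule for reads with several matches and the filter that left 13915 genes in the batch 2 table are not given in the sources used here. Groups were taken from the sample labels. Counts were tested as deposited in edgeR 4.0.16 (TMM factors 0.986 to 1.017, filterByExpr, robust quasi-likelihood F test, Benjamini-Hochberg) under R 4.3.3, within each batch over its 3 groups (13261 and 13314 genes tested) and over all 24 libraries for differences between batches (13690 genes). SE is the log2 fold change divided by the root of F. TPM used the deposited exonic lengths, and log2 CPM a prior count of 2. Ratios of TPM were compared by exact permutation. The script was tested on simulated data. Alternatives were upper-quartile or RLE factors, DESeq2 1.42.0, a filter of 50 counts and no filter, the 8 libraries of each comparison alone, the replicate number as a block, glmTreat against a fold of 1.2, subtraction of the median of other genes within 5 Mb, and each library left out. All 10 members are named; of other lists, up to 3 genes per comparison by size of change among called genes with no overlap between groups and a mean log2 CPM of at least 1, plus Srebf1, Srebf2, Insig1, Hmgcs1 and Sqle, and the 3 genes most like each member; a few genes that this rule names are not reported here. Sqle rose by 0.15, 0.87 and 0.62 in CCR7, X2-PDPN and CCR7-PDPN of batch 1 against X2 (edgeR adjusted p = 0.043, 1.1e-27 and 2.7e-07). The members and lists were chosen with earlier results of these data known. Replicate pairs within a group differed by more than sampling noise (chi-square per degree of freedom 1.99 to 20.4 over 36 pairs), so none was counted as a copy.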

Additional observations from a re-analysis of the deposited data

Results flagged for a closer look

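Among 60 sets of 4 libraries (10 members in 6 groups), 3 held a library whose gap to the next, as a share of the range, passed the critical value of Dixon's test, and chance marks about 1 set in 20. Fasn was at 229 CPM in CCR7-PDPN replicate 4 of batch 1, where the other 3 libraries had a median of 261 CPM, and at 232 CPM in CCR7-PDPN replicate 4 of batch 2, beside a median of 264 CPM. Fads2 was at 166 CPM in CCR7 replicate 1, beside a median of 149 CPM. The difference that goes with the PDPN sort was unequal with and without CCR7, by the tested difference of differences, in Acss2 (-0.50), Me1 (-0.27), Acaca (-0.33), Fasn (-0.51), Elovl6 (-0.64), Scd2 (-0.36) and Fads2 (-0.11), on the log2 scale. CCR7 and batch cannot be told apart in that test.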

How the results depend on the processing

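The counts of members called kept their direction and stayed within 1.5 times their value with DESeq2, RLE and upper-quartile factors, both other filters, the 8 libraries of each comparison alone and each library left out. Against a fold of 1.2 (glmTreat) fewer were called: 1 higher and 0 lower in CCR7 against X2 (from 7 and 2), 2 higher in CCR7-PDPN against CCR7 (from 7), 6 in X2-PDPN against X2 (from 10), 5 in CCR7-PDPN against X2 of batch 2 (from 8), and 0 higher and 2 lower in CCR7-PDPN against X2-PDPN (from 2 and 6), as the test's own construction asks for more than any change. With the replicate number as a block the 7, 7, 8, 10, 8 and 2 higher and 2 and 6 lower members of these comparisons were the same in number, and the 7 lower in the difference of differences became 6. Within a batch, same-numbered libraries of different groups correlated by -0.31 to 0.15 in batch 1 and -0.09 to 0.33 in batch 2, so the numbers were not taken to pair libraries. Fads2 was lost from the difference of differences under the block (edgeR adjusted p = 0.057), without a filter on low counts (0.052) and without CCR7 replicate 1 (-0.07, 0.12), and its value ran from -0.13 to -0.07 over the libraries left out. Acly was gained there with upper-quartile factors (0.04) and a filter of 50 counts (0.025). With the median of genes within 5 Mb subtracted, an alternative chosen after seeing the data, the members' median was 0.15 in CCR7 against X2, 0.12 in CCR7-PDPN against CCR7, 0.30 and 0.27 in CCR7-PDPN against X2 of batch 1 and 2 and 0.35 in X2-PDPN against X2, and that of the cholesterol genes was 1.01 and 1.02 in CCR7-PDPN against X2 and 0.23 against X2-PDPN. Values near 0 changed sign. Scd1 was at 0.00 in CCR7-PDPN against X2 of batch 1 with upper-quartile factors, and in the difference of differences at 0.00 (RLE), -0.01 (upper-quartile) and -0.02 (filter of 50 counts). With libraries left out, Me1 ran from 0 to 0.02 in CCR7-PDPN against CCR7, Acaca from -0.05 to 0.03 and -0.05 to 0.01 in CCR7-PDPN against X2 of batch 1 and 2, Fads2 from -0.04 to 0 against X2-PDPN, Scd1 from -0.01 to 0.03 in the difference of differences, and Acaca, Fasn and Scd2 from -0.05 to 0.03, -0.02 to 0.07 and -0.01 to 0.01 between the batches. The cause of these changes was not tested. Levels in X2 of batch 1 moved by less than 1 SD with the exon lengths of GENCODE M21. The depth did not limit the members, though Acss2 had the fewest counts of them, at 253 in its lowest library. Its largest SD within a group was 8.35% of the mean CPM, beside 8.4% for Acaca and 7.96% for Fasn.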

Other observations

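Among 23 genes of fatty acid oxidation, CCR7-PDPN against X2-PDPN had 14 higher and 2 lower (median 0.18, where 31.2% of all genes were called higher and 32% lower). In CCR7 against X2, 8 rose and 4 fell (0.03, beside 24% and 25.2% of all genes), and in X2-PDPN against X2 5 rose and 8 fell (-0.02, beside 28.2% and 28.5%). Mlycd, which removes malonyl-CoA, rose by 1.16 in CCR7 (SE 0.07, edgeR adjusted p = 1.6e-11), beside a median of 0.95 for the other genes within 5 Mb. Slc25a20, the carnitine carrier of mitochondria, rose by 0.96 (SE 0.08, edgeR adjusted p = 1.1e-09), beside a median of 0.39. Decr1, which handles unsaturated chains in oxidation, rose by 0.81 (SE 0.06, edgeR adjusted p = 1.5e-10), beside a median of 0.06.

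Of 19 genes of glycerolipid synthesis, 1 rose and 6 fell in CCR7 against X2 (median -0.05, beside 24% and 25.2% of all genes called higher and lower) and 6 rose and 6 fell in X2-PDPN against X2 (-0.03, beside 28.2% and 28.5%). Agpat5, an acyltransferase of phosphatidic acid synthesis, fell by 0.52 in CCR7 (SE 0.05, edgeR adjusted p = 4.7e-08), beside a median of -0.35 for the genes within 5 Mb. Of 11 genes of fatty acid uptake and storage, 3 rose and 4 fell in X2-PDPN against X2 (-0.02, beside the same shares), and Hilpda, an inhibitor of lipolysis on lipid droplets, fell by 0.51 (SE 0.06, edgeR adjusted p = 4.1e-09), beside a median of -0.07. Thrsp, a lipogenic gene outside the rule for named genes and picked after its values were seen, had 11 to 22 counts per library in X2-PDPN and 1 to 2 counts in X2 of batch 2.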
